A study of Homo sapiens with 4 samples.

Results

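The rows described here are the microRNA precursor genes of a table of expression values per gene. They are the rows whose symbol begins with MIR and a digit or with MIRLET7, without the host gene rows that carry HG in their symbol, and with a mean of at least 1 TPM over the 4 libraries. MIR663A, MIR663B and the MIR3687 and MIR3648 copies were left out by name. This gave 103 rows out of 26922 rows in all, 92 of which were synthetic ERCC spike-ins. The symbol pattern alone matched 1877 rows, of which 1506 were listed at 0 in all 4 libraries and 371 were above 0 somewhere. The rows were thus chosen by their mean TPM, which is not a finding, and this mean leans on the precipitated RNA: 102 of the 103 rows reach a mean of 1 TPM in the Flag-RIP libraries, 19 reach it in the inputs, and 84 do so in Flag-RIP only.

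The libraries come from RNA immunoprecipitation sequencing in U2OS, a human bone osteosarcoma cell line. The cells had been infected with a lentivirus, pmiRNA1-3 x Flag-QKI7, and were taken as GFP-positive cells, so the inputs too come from cells that make tagged QKI7, 1 of the protein forms of the gene QKI. There were 2 Flag-RIP libraries, of RNA recovered with a Flag antibody after ultraviolet cross-linking and sonication, and 2 input libraries of RNA from the same kind of lysate taken without antibody. No precipitation from untagged cells and no mock antibody entered the comparison. The labels do not state that replicates 1 and 2 were grown separately. The p-values then reflect only how far these libraries vary, and that variation may be technical.

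MicroRNAs are made from hairpins in longer primary transcripts, many of them introns of protein-coding genes. The Microprocessor, built on DROSHA and DGCR8, cuts the hairpin out in the nucleus, XPO5 exports it, and DICER1 trims it to the mature microRNA that guides an Argonaute protein to target mRNAs by its seed. QKI binds RNA through a core of ACUAAC or ACUAAU. A library of fragmented total RNA does not capture the short mature microRNA well, and a read that falls in the hairpin may come from the primary transcript, the host intron or the hairpin itself.

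Mature sequences that belong to rows named below are shown first, each 5′ to 3′ from RefSeq on GRCh38.p14, with the seed (bases 2 to 8) in capitals. The TPM values are of the precursor rows and not of these mature microRNAs. The first set belongs to rows that were higher in Flag-RIP.
hsa-miR-4784: uGAGGAGAugcugggacuga
hsa-miR-941: cACCCGGCugugugcacaugugc
hsa-miR-8078: gGUCUAGGcccggugagagacuc
hsa-miR-378i: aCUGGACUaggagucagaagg
hsa-miR-1306-5p: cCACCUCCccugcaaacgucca
The second set belongs to rows that were lower relative to the median gene.
hsa-miR-6516-5p: uUUGCAGUaacaggugugagca
hsa-miR-3651: cAUAGCCCggucgcugguacauga
hsa-miR-6501-5p: aGUUGCCAgggcugccuuuggu
hsa-miR-4721: uGAGGGCUccaggugacggugg
hsa-miR-4449: cGUCCCGGggcugcgcgaggca
The third set belongs to long-studied microRNAs that are among the rows.
hsa-miR-25-3p: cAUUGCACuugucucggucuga
hsa-miR-99b-5p: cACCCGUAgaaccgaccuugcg
hsa-miR-103a-3p: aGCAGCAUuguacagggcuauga
hsa-miR-196a-5p: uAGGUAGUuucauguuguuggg
The last set holds the only pairs of differently named microRNAs among the rows that share a seed.
hsa-miR-6758-5p: uAGAGAGGggaaggaugugaugu
hsa-miR-6856-5p: aAGAGAGGagcaguggugcugugg
hsa-miR-3689b-3p: cUGGGAGGugugauauuguggu
hsa-miR-6779-5p: cUGGGAGGggcuggguuuggc
Mature sequences were found for 91 of the 103 rows. They carried 123 distinct seeds, and 2 of these were shared by a pair of names.

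Hairpin sequences were found for 83 rows. The core ACUAAC was in 1 of them, MIR4652, against 12 of 1560 hairpins in the RefSeq table (0.769%), and ACUAAU was in none of the 83 against 12 of the 1560. Only the transcribed strand was searched, since the hairpin is RNA, and the motifs do not overlap each other. The stretch from base 18 to base 43 of the 78-base MIR4652 hairpin is shown with the core in capitals.
MIR4652: gguuaauagaACUAACuaaccagaac
MIR4652 lies on chromosome 7 from 93716928 to 93717005 on the plus strand of GRCh38, outside any other annotated gene. Its TPM was 8.96 and 2.3 in Flag-RIP, against 0 and 0.35 in input, and its centred change, the measure explained below, was 0.99 without passing the test (limma adjusted p = 0.085). A match in this window is only a description of the letters.

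The 4 libraries differ in scale. The RNAs RN7SL1 and RN7SL2 took 39.8% and 43.4% of TPM in Flag-RIP, against 84.6% and 79.7% in input, and the spike-ins took 18.9% and 25.6%, against 2.78% and 3.89%. Genes at a TPM of at least 1 numbered 11970 and 12098 in Flag-RIP, against 6117 and 7803 in input. Library medians of log2(TPM + 1) lay 1.32 apart between the groups over the 10415 genes tested, and the median gene rose 3.31-fold in plain TPM. Changes are therefore given after each library was shifted to a common median and are called centred. The osteosarcoma line check genes RUNX2, COL1A1, SPARC and VIM were present in every library, with RUNX2 at 6.52 and 4.05 TPM in Flag-RIP, against 0.61 and 1.12 TPM in input, and COL1A2 was at 0.34 TPM or less in all 4.

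Most of these rows rested on small whole numbers of a unit of TPM. Values of rows of equal length fell on whole multiples of a step, and a step common to rows of at least 73 bases was found once 50 bases were taken off the RefSeq length. With a tolerance of 0.1 step, 82.6% and 84.0% of the microRNA row values of up to 20 steps in Flag-RIP were whole, as were 75.9% and 79.6% in input. The same step made 82.0% to 89.1% of the small nucleolar and Cajal body RNA values whole. Of the rows described here, 42 were shorter than the search used, and 74 of their 78 values of up to 20 steps were whole. For a row of 80 bases 1 step was 1.05 and 1.07 TPM in Flag-RIP, against 0.224 and 0.327 TPM in input. The submitters do not state what a step is, so these numbers are given as steps and not as read counts. Lengths of the rows with a RefSeq entry ran from 53 to 148 bases with a median of 78.

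Summed over all 4 libraries, the median row had 8.0 steps, 32 rows had at most 5 and 16 had more than 20. In short rows a single step is a large value. MIR4634, of 54 bases, had 7.78 TPM in Flag-RIP replicate 1 from 1 step and was listed at 0 in the other libraries. MIR6894, of 57 bases, had 4.58 TPM in Flag-RIP replicate 2 from 1 step and 0 elsewhere. Both are above the threshold of 1 TPM on the mean. The shortest row, MIR1825 of 53 bases, went against the pattern, with 4.78 and 0 TPM in Flag-RIP, against 0 and 4.02 TPM in input, since its values come to 0.457 and 1.23 steps.

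**Figure D1:**
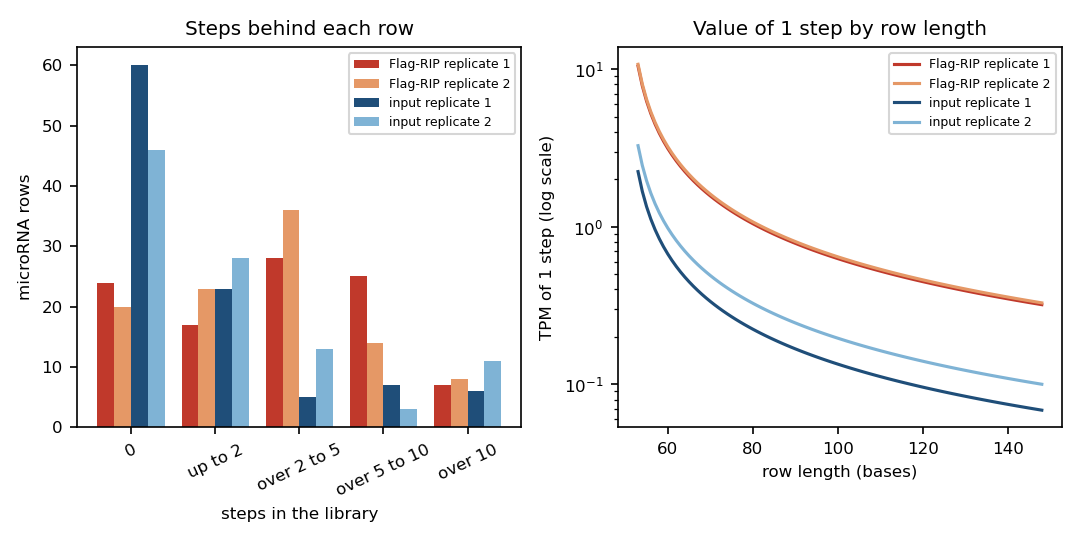
Left, the number of microRNA rows with a known length by the number of steps behind their value in each library; right, the TPM of 1 step against row length in bases, on a log axis. In input replicate 1, 60 rows are at 0, and in Flag-RIP replicate 1, 24 are; at every length the step is larger in Flag-RIP than in input.

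Presence varied from library to library. All 4 libraries held 31 of the rows, both Flag-RIP libraries held 59, and 44 rows were at 0 in 1 of the Flag-RIP libraries. Both inputs listed 39 rows at 0. Of these, 25 rows rested on 1 Flag-RIP library alone, 10 on replicate 1 and 15 on replicate 2, with 1 to 8 steps and a TPM of 4.02 to 22.32 (median 5.88). The highest was MIR6515, in the calreticulin gene CALR, at 22.32 TPM from 5 steps in replicate 1 and 0 in replicate 2. None of the 25 was called (lowest limma adjusted p = 0.53). At the edge of the threshold lay MIR4714, MIR3064 and MIR6817, with means of 1.03, 1.0 and 1.0 TPM, and just below it MIR1178, MIR6884 and MIR4525, at 0.98, 0.97 and 0.96 TPM.

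Without MIR6723 the rows summed to 477 and 486 TPM in Flag-RIP, against 54.0 and 107 TPM in input. Most rows passed the filter through Flag-RIP, so these sums do not support a difference of microRNA rows from other genes. MIR6723 exceeded all other rows together, with 6316 and 4067 TPM in Flag-RIP, against 1017 and 1389 TPM in input. MIR6723 has no entry in the RefSeq tables used here, so its length, steps, position and host are unknown. Whether its TPM comes from a microRNA precursor was not tested. The centred change of MIR6723 was 0.77 (SE 0.27) and did not pass (limma adjusted p = 0.051), although both Flag-RIP values lay above both inputs.

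After centring, limma called 17 of the 103 rows higher in Flag-RIP and 6 lower, with adjustment over 10415 genes. Some rows carry identical values, among them MIR941-2 to MIR941-5, MIR6724-1 to MIR6724-4, and MIR4315-1 with MIR4315-2. The 103 rows hold 93 distinct sets of values, and the 17 hold 14, so these counts are not of independent measurements. Of all genes tested, 16.4% were higher and 24.4% lower, so the share of rows that rose, 16.5%, was near the background. As deposited, 94 rows were higher and 2 lower, against 92.3% and 0.317% of all genes. On a scale set by the spike-ins the split was 61 and 14, or 59.2% and 13.6% of the rows, against 3.12% and 60.9% of all genes. After removal of the 20 most abundant rows and rescaling it was 51 and 6 of 102 rows, or 50.0% and 5.88%, against 36.0% and 7.02% of all genes. Without input replicate 1 it was 11 and 2, or 10.7% and 1.94%, against 3.19% and 3.09%. Without Flag-RIP replicate 1 it was 50 and 14, or 48.5% and 13.6%, against 18.3% and 24.8%, and without Flag-RIP replicate 2 it was 50 and 13, or 48.5% and 12.6%, against 22.03% and 30.6%. The share of rows called higher was thus near that of all genes in the 4-library centred fit and as deposited. It was above that of all genes in these 5 settings. The fits are not like tests, since their limma adjusted p-values differed widely. That of MIR4784 was 0.0034 in the 4-library centred fit, 3.2e-30 as deposited and 6.2e-65 without the 20 most abundant rows. The shares therefore cannot be read against each other across settings. Among other settings, the share of rows called higher was above that of all genes with no filter (77.7% against 23.8%) and with a pseudocount of 0.1 (29.1% against 19.3%). It was also above after quantile normalization (21.4% against 17.7%) and without input replicate 2. It was below with robust variance fitting (12.6% against 16.1%) and at a mean of at least 5 TPM (15.4% against 25.6%). The centred median was 0.13 over the rows and -0.11 over all genes. Most rows passed the filter through Flag-RIP, so neither these counts nor this median support a difference of microRNA rows from other genes. Of the 19 rows that reach 1 TPM in input alone, 2 were higher and 6 lower, and of the other 84, 15 were higher and 0 lower. Both centred Flag-RIP values lay above both inputs in 30 rows and below both in 8, against 29.4% and 47.3% of all genes.

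**Figure D2:**
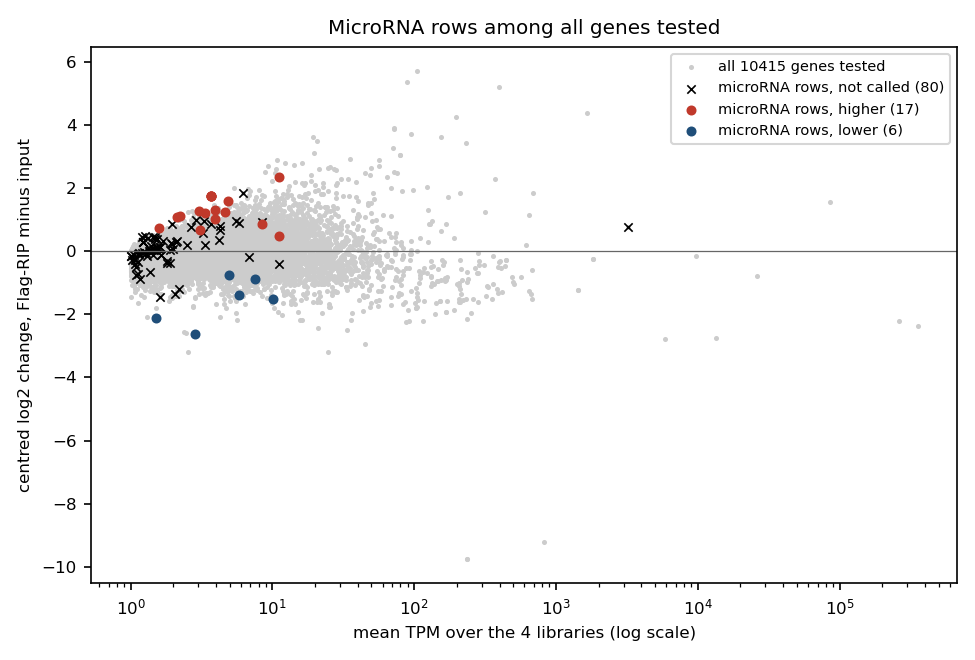
Centred log2 change (Flag-RIP minus input) against mean TPM on a log axis for all 10415 genes tested (grey) and the 103 microRNA rows, split into 17 higher, 6 lower and 80 not called. Apart from MIR6723 at the far right, the rows lie at the low end of the mean TPM axis.

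MIR4784 had the largest rise. It lies on the minus strand of chromosome 2 from 131491160 to 131491236, inside MZT2A, which encodes a subunit of the gamma-tubulin complex. Its TPM was 15.1 and 27.41 in Flag-RIP, against 0 and 1.82 in input, or 13 and 23 steps against 0 and 5. Both Flag-RIP values were far above both inputs, and the centred change was 2.35 (SE 0.38, limma adjusted p = 0.0034), a call that was lost with robust variance fitting. MZT2A itself was higher in Flag-RIP in plain TPM, with 47.0 and 48.9 TPM, against 31.4 and 35.2 TPM in input. Relative to the median gene it was called lower, with a centred change of -0.80 (limma adjusted p = 0.0099).

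The MIR941 cluster was the one group of neighbouring rows that rose. It holds 5 copies within 491 bases of chromosome 20, from 63919449 to 63919939, inside DNAJC5, which encodes a chaperone of synaptic vesicles, and the copies are known to encode the same miR-941 shown above. MIR941-2, MIR941-3, MIR941-4 and MIR941-5 had identical values of 7.2 and 7.46 TPM in Flag-RIP and were listed at 0 in both inputs. The centred change of each was 1.74, with an SE of 0.15 (limma adjusted p = 5.5e-04). MIR941-1 had 8.23 and 21.32 TPM in Flag-RIP, against 1.83 and 2.23 TPM in input, and a centred change of 0.93 that did not pass (limma adjusted p = 0.074). Reads cannot be assigned to a copy with certainty, so the 4 identical rows are 1 measurement, and their fitted change depends on the pseudocount because the inputs are at 0. DNAJC5 had a centred change of 0.03 and did not pass (limma adjusted p = 0.86).

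MIR8078, on chromosome 18 from 112256 to 112339, had the smallest adjusted p of the rows. Its TPM was 9.22 and 9.47 in Flag-RIP, against 0.2 and 0.58 in input, with 10 steps in each Flag-RIP library against 1 and 2. The replicates stood close together in each group, and the centred change was 1.59 (SE 0.10, limma adjusted p = 1.7e-04). The gene tables do not give the strand of ROCK1P1 and LOC112268408, the genes that span it.

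MIR378I and MIR1306 followed. MIR378I, a member of the miR-378 family on chromosome 22 from 41923222 to 41923297, had 8.44 and 8.66 TPM in Flag-RIP, against 0.26 and 1.13 TPM in input, and rose by 1.23 on the centred scale (SE 0.13, limma adjusted p = 0.0011). MIR1306 lies in DGCR8, the gene of the RNA-binding subunit of the Microprocessor, on chromosome 22 from 20086058 to 20086142. It had 6.4 and 6.34 TPM in Flag-RIP, against 0 and 0.63 TPM in input, and rose by 1.21 (SE 0.13, limma adjusted p = 0.0011). DGCR8 rose with it, at 11.5 and 12.1 TPM in Flag-RIP, against 1.37 and 2.45 TPM in input (centred change 0.84, limma adjusted p = 0.0021). Of the 8 rows called higher with a tested host, MIR1306 was the only one whose host was also called higher. MIR941-2 to MIR941-5, with identical values and the same host, are among these 8.

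MIR4516 is a row that rose on the strand opposite to its gene. It lies in PKD1, the gene of polycystin-1, on chromosome 16 from 2133119 to 2133204, and had 5.23 and 9.83 TPM in Flag-RIP, against 0 and 0.82 TPM in input (centred change 1.29, SE 0.27, limma adjusted p = 0.0089). PKD1 also rose, by 1.28 on the centred scale (limma adjusted p = 0.0018), with 36.9 and 32.7 TPM in Flag-RIP, against 3.5 and 6.73 TPM in input. No source used here says whether counting used the strand, so reads of MIR4516 and of PKD1 cannot be told apart. The MIR4516 call was lost without input replicate 1 and with robust variance fitting. MIR1225, in PKD1 on the gene's own strand, had 5.49 and 0 TPM in Flag-RIP, against 0 and 0.25 TPM in input, and was not called (limma adjusted p = 0.90).

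Several rows rose from very few steps. MIR6514, in the mRNA export factor gene NXF1, and MIR6759, in the cell cycle kinase gene CDK4, each had 2 steps in each Flag-RIP library and 0 in both inputs. That gave 3.13 and 3.22 TPM for MIR6514 and 4.18 and 4.29 TPM for MIR6759 in Flag-RIP, with centred changes of 0.74 and 1.07 (limma adjusted p = 0.019 and 0.0035). MIR6758, on chromosome 12, had 9.63 and 2.47 TPM in Flag-RIP from 4 and 1 steps and 0 in both inputs, and its change of 1.29 passed (limma adjusted p = 0.043). Its seed partner MIR6856 had 5.53 and 0 TPM in Flag-RIP and 0 in both inputs, and was not called. The other seed pair was not called either: MIR3689B had 2.88 and 1.97 TPM and MIR6779 0 and 4.59 TPM in Flag-RIP, and both were at 0 in both inputs. The MIR6758 call was lost without any 1 of Flag-RIP replicate 1, input replicate 1 and input replicate 2, and the MIR6514 call without any 1 of Flag-RIP replicate 1, Flag-RIP replicate 2 and input replicate 2. Neither passed with a pseudocount of 5, and MIR6758 did not pass with robust variance fitting or without the variance trend.

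MIR196A1, MIR4737, MIR614, MIR3916 and MIR661 complete the rows that rose. MIR196A1 lies in the HOXB cluster on chromosome 17 from 48632490 to 48632559, and its mature microRNA is known to target HOX mRNAs. It had 6.27 and 4.82 TPM in Flag-RIP, against 0.34 and 0.98 TPM in input (centred change 0.68, SE 0.12, limma adjusted p = 0.0053), a call lost without input replicate 1 and on the spike-in scale (0.32, limma adjusted p = 0.22). MIR4737 had 17.2 and 18.69 TPM in Flag-RIP, against 3.89 and 5.06 TPM in input. In steps these values were 17 and 18, against 18 and 16, so its rise of 0.48 on the centred scale (limma adjusted p = 0.021) comes with nearly equal numbers of steps in both groups. When scaled to the spike-ins its change was -0.65. MIR614 had 18.03 and 10.46 TPM in Flag-RIP, against 1.17 and 3.92 TPM in input. MIR3916 had 9.27 and 5.12 TPM in Flag-RIP, against 0.15 and 1.11 TPM in input, and MIR661 had 5.63 and 3.3 TPM in Flag-RIP and 0 in both inputs. In these 3 rows both Flag-RIP values lay above both inputs, and replicate 1 was the higher Flag-RIP library. Their centred changes were 0.86 for MIR614, 1.03 for MIR3916 and 1.10 for MIR661, with limma adjusted p of 0.042, 0.011 and 0.0073. MIR614 had a change of -0.053 when scaled to the spike-ins. Without input replicate 1 the calls of MIR4737, MIR614 and MIR3916 were lost, and without input replicate 2 those of MIR4737 and MIR661. MIR614 and MIR4737 also failed to pass after quantile normalization and with a pseudocount of 0.1, MIR614 without the variance trend and at a mean of at least 5 TPM, and MIR614 and MIR3916 with robust variance fitting.

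**Figure D3:**
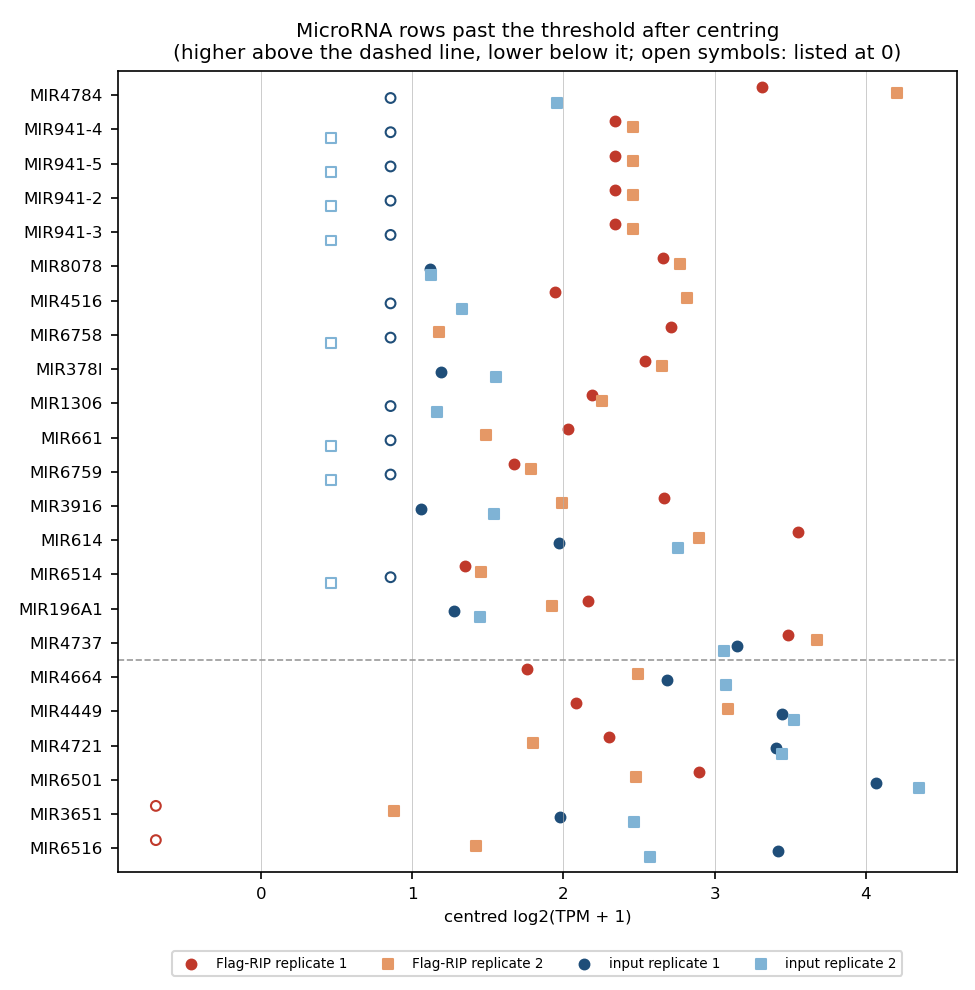
Centred log2(TPM + 1) in each of the 4 libraries for the 23 microRNA rows past the threshold; each point is 1 library, and open symbols are rows listed at 0, which sit apart between libraries because of the shift to a common median. The 17 rows above the dashed line have both Flag-RIP points to the right of both inputs, and the 6 below it have both to the left.

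The rows that were lower did not lose TPM to the same degree, since the centred change is relative to a median gene that rose. MIR6501 had 11.06 and 7.57 TPM in Flag-RIP, against 8.28 and 13.83 TPM in input, from 6 and 4 steps against 21 and 24. The groups overlap in plain TPM, and the centred change was -1.52 (SE 0.17, limma adjusted p = 0.0013). Its host SON, which encodes a nuclear speckle protein, was called higher, with a centred change of 0.37 (limma adjusted p = 0.037). MIR4721, in the gene of the mitochondrial elongation factor TUFM, was similar, with 6.99 and 4.35 TPM in Flag-RIP, against 4.87 and 6.93 TPM in input (centred change -1.38, SE 0.17, limma adjusted p = 0.0015). TUFM was called lower as well, at -0.54 (limma adjusted p = 0.027). As deposited, the changes of MIR6501 and MIR4721 were -0.21 and -0.06 and did not pass (limma adjusted p = 0.53 and 0.85).

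MIR4449 differed most from the gene that holds it. It lies on chromosome 4 from 52712682 to 52712747 in DANCR, a long noncoding RNA that also hosts small nucleolar RNAs. DANCR had 109 and 73.7 TPM in Flag-RIP, against 5.18 and 6.75 TPM in input, a 15.3-fold ratio of means and a centred change of 2.39 (limma adjusted p = 4.6e-04). MIR4449 had 5.87 and 12.06 TPM in Flag-RIP, against 5.02 and 7.35 TPM in input, and its centred change was -0.90, with an SE of 0.28 (limma adjusted p = 0.036). As deposited the change of MIR4449 was 0.42 and did not pass. MIR4664 had 4.48 and 7.66 TPM in Flag-RIP, against 2.55 and 5.13 TPM in input, from 3 and 5 steps against 8 and 11. Its groups overlap in plain TPM. MIR4664 also turned over as deposited, to 0.56 without passing, against -0.75 centred (limma adjusted p = 0.036). Both calls were also lost without either input replicate, after quantile normalization, with no filter, with robust variance fitting and without the variance trend. MIR4449 did not pass with a pseudocount of 5, nor MIR4664 without the 20 most abundant rows.

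MIR6516 and MIR3651 were called lower on both scales and overlap the genes of other small RNAs. MIR6516 overlaps SCARNA16, a guide RNA of the Cajal body, in a region of SNHG20 and SEC14L1 on chromosome 17 from 77089417 to 77089497. It had 0 and 3.11 TPM in Flag-RIP, against 4.9 and 3.33 TPM in input (centred change -2.64, SE 0.59, limma adjusted p = 0.011). Relative to the median gene SCARNA16 was also called lower (centred change -1.004, limma adjusted p = 0.0023). In plain TPM it was higher in Flag-RIP, with 3.44 and 3.53 TPM, against 2.61 and 2.61 TPM in input. MIR3651 overlaps SNORA84, an H/ACA guide RNA, in the isoleucyl-tRNA synthetase gene IARS (now IARS1) on chromosome 9 from 92292458 to 92292547. It had 0 and 1.83 TPM in Flag-RIP, against 1.18 and 3.02 TPM in input (centred change -2.13, SE 0.44, limma adjusted p = 0.0086). The groups of MIR3651 overlap in plain TPM, and its values came to 0 and 2.27 steps, against 7.03 and 12.3. SNORA84 had a centred change of 0.16 and did not pass (limma adjusted p = 0.50). The division of reads between such nested genes is uncertain. Neither MIR6516 nor MIR3651 passed with a pseudocount of 0.1, with robust variance fitting or without input replicate 1, and MIR3651 did not pass without input replicate 2.

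MIR1282 and MIR762, both among the 12 rows with the highest mean, did not pass. MIR1282, on the strand opposite to SERF2, had 10.46 and 19.99 TPM in Flag-RIP, against 7.5 and 6.92 TPM in input (centred change -0.40, limma adjusted p = 0.31). MIR762 had 9.23 and 9.42 TPM in Flag-RIP, against 1.86 and 6.71 TPM in input (centred change -0.18, limma adjusted p = 0.63). MIR5047 and MIR3064 lie within 540 bases of chromosome 17 in DDX5, the gene of a helicase of the Microprocessor. MIR5047 had 6.27 and 14.17 TPM in Flag-RIP, against 0.67 and 2.16 TPM in input, and did not pass (centred change 0.88, limma adjusted p = 0.069), while MIR3064 was above 0 in Flag-RIP replicate 2 alone, at 4.02 TPM. DDX5 was called higher at 0.71 (limma adjusted p = 0.016). MIR6836, in SNX8, had 2.41 and 22.25 TPM in Flag-RIP and 0 in both inputs, and its change of 1.84 did not pass (limma adjusted p = 0.081). Its Flag-RIP values came from 1 and 9 steps.

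Long-studied microRNA families were represented by few rows above 0. Over 13 families, among them let-7, miR-17/92, miR-15/16, miR-21, miR-29, miR-30 and miR-34, the table held 65 rows, of which 52 were at 0 in all 4 libraries and 2 reached a mean of 1 TPM. That is 80.0% at 0, against 80.2% of the 1877 rows that match the symbol pattern. MIR25, of the miR-106b/25 cluster in the DNA replication gene MCM7, had 2.77 and 0.95 TPM in Flag-RIP, against 0.2 and 0.58 TPM in input, and was not called (centred change -0.34, limma adjusted p = 0.36). Both Flag-RIP values of MIR25 lay above both inputs in plain TPM. The sign of the centred change of so low a row can depend on the pseudocount. MIR99B had 6.27 and 0 TPM in Flag-RIP from 4 steps and was at 0 in both inputs (limma adjusted p = 0.91). No row of the let-7 family went above a mean of 0.57 TPM, that of MIRLET7D, and MIR21, MIR22 and all rows of the miR-15/16, miR-24, miR-29, miR-30 and miR-34 families were at 0 throughout. MIR103A2, in the pantothenate kinase gene PANK2, resembled MIR99B, with 4.48 and 0 TPM in Flag-RIP and 0 in both inputs.

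Most rows lie inside genes. On RefSeq positions, 57 rows were on the strand of a protein-coding gene that spans them and 6 on that of a noncoding gene, 9 were only opposite to a gene, 10 were spanned by no other gene, 19 lay in a gene whose strand or their own the tables do not give, and 2 had no entry. The rows without an entry were MIR4461 and MIR6723. The gene tables do not give exons, so exonic and intronic rows could not be separated. Of 51 host genes tested, 12 were higher and 9 lower, or 23.5% and 17.6%, against 16.4% and 24.4% of all genes, with a median of -0.01. Without input replicate 1, 4 hosts were higher and 0 lower, against 3.19% and 3.09% of all genes. Over the 56 rows with a tested host, the centred changes of row and host had a Pearson correlation of -0.09, across rows that are not independent and mostly rest on few steps. The centred changes of low rows and hosts are also understated by the pseudocount. Host and row were called in the same direction in 2 cases, MIR1306 with DGCR8 and MIR4721 with TUFM. Relative to the median gene they were called in opposite directions in 4: MIR4784 with MZT2A, MIR6759 with CDK4, MIR4449 with DANCR and MIR6501 with SON. As deposited, the changes of row and host were 3.67 and 0.52 for MIR4784, and 2.39 and 0.83 for MIR6759. They were 0.42 and 3.71 for MIR4449, and -0.21 and 1.68 for MIR6501. Another 16 rows that were not called had a called host, as in MIR6834, with 4.05 and 0 TPM in Flag-RIP, against 0.22 and 0 TPM in input, whose host PFDN6 rose by 1.81 (limma adjusted p = 6.9e-04).

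**Figure D4:**
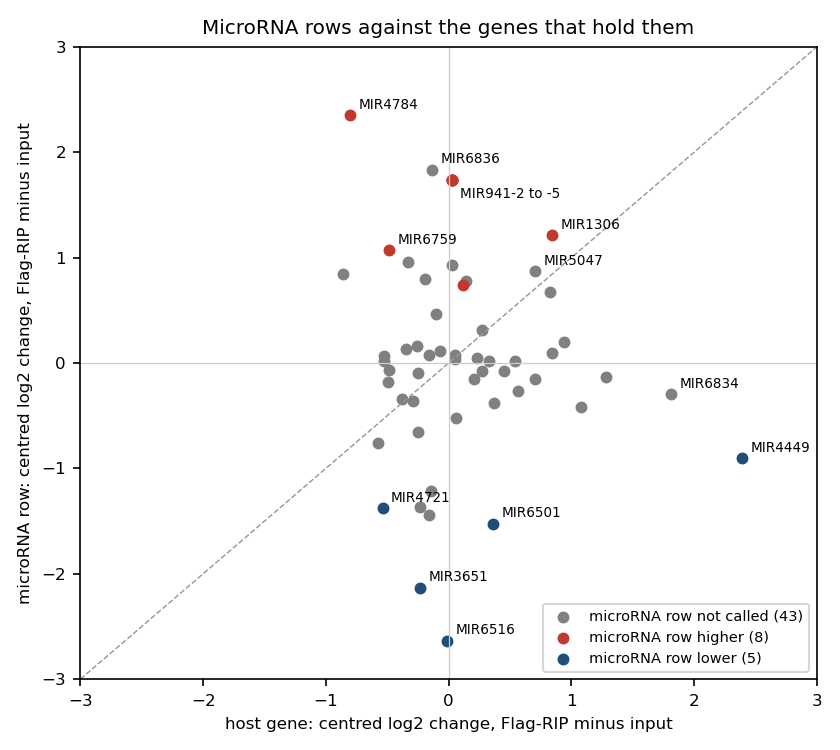
Centred log2 change of each microRNA row against that of the gene that holds it on the same strand, for 56 rows with a tested host; the dashed line marks equal change. MIR4784 lies at 2.35 with its host at -0.80, and MIR4449 at -0.90 with its host at 2.39.

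Genes that make and use microRNAs were read from a list of 25, of which 22 were tested, 10 higher and 2 lower after centring (45.5% and 9.09%, against 16.4% and 24.4% of all genes; median 0.36). ERH, which binds DGCR8 in the Microprocessor, rose most, with 560.34 and 221.76 TPM in Flag-RIP, against 5.81 and 7.24 TPM in input (centred change 4.24, limma adjusted p = 5.5e-04). TNRC6A, a partner of Argonaute in silencing, rose by 1.44, DGCR8 by 0.84 and TNRC6C, a paralogue of TNRC6A, by 0.76 (limma adjusted p of 5.5e-04, 0.0021 and 0.0034). TARBP2 and PRKRA, the double-stranded RNA-binding partners of DICER1, were the 2 called lower relative to the median gene. Their centred changes were -0.66 and -0.52 (limma adjusted p = 0.0033 and 0.010). In plain TPM both were higher in Flag-RIP: TARBP2 had 7.15 and 6.27 TPM, against 3.3 and 4.57 TPM in input. PRKRA had 4.74 and 3.79 TPM in Flag-RIP, against 1.78 and 2.26 TPM in input. DICER1 had a centred change of 0.33 and did not pass. Scaled to the spike-ins, 1 of the 22 was higher and 9 were lower, against 3.12% and 60.9% of all genes. Without input replicate 1 the counts were 2 and 0, against 3.19% and 3.09%.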

How the data were processed

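The authors deposited 1 table of TPM, a length-normalised share of each library. STAR, RSEM 1.2.31 and GRCh38 are named, per the submitters' processing notes. No source used here gives the annotation, the filters or the strandedness of counting. Per the labels' protocols, a kit for stranded mRNA libraries was used, on RNA described as treated with Ribo-Zero. The depth is unknown, since TPM does not keep it, so no counting interval is given.

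Genes with a mean of at least 1 TPM were tested, without the 92 spike-in rows. Flag-RIP was compared with input in limma 3.58.1 (R 4.3.3; lmFit, eBayes with a trend) on log2(TPM + 1), after the medians of all libraries had been set equal. Tests were two-sided, with Benjamini-Hochberg adjustment over 10415 genes and a threshold of 0.05. The 4-library centred fit had 2 residual degrees of freedom and 5.72 prior ones. The prior ones of the alternatives are not given. With this pseudocount the change of low genes is understated, so the shift to a common median can turn it negative. DOCK3, the host of MIR4787, had a 6.05-fold ratio of means but a centred change of -0.19, while the median gene rose 3.31-fold. The centred median over the microRNA rows was 0.13, against 1.20 with a pseudocount of 0.1 and -0.09 with 5. The fit was also run on simulated data with normal noise on the log scale and no whole steps. That run does not cover rows that rest on few steps. Alternatives covered scaling, pseudocount, filter, variance fitting, each library left out and the replicate number as a block.

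Host genes and lengths were found by position and strand in RefSeq tables of GRCh38.p14. The rows, gene lists and tests were chosen with earlier results of these data known. Named with values were the 12 rows of highest mean, the 10 largest changes past the threshold in each direction, members of the 13 families, clustered rows, rows at the edge of the threshold, the hosts of these, and the 4 pathway genes of largest change. Any other row or gene given with values was chosen after its values were seen.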

Additional observations from a re-analysis of the deposited data

How the results depend on the processing

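The 17 higher and 6 lower calls among the 103 rows depended on the scale, the filter, the pseudocount, the variance fitting and the libraries used. The counts were 94 and 2 as deposited (all genes 92.3% and 0.317%), 61 and 14 on the spike-in scale (3.12% and 60.9%), and 51 higher with the 20 most abundant rows left out (36.0%). They were 30 higher with a pseudocount of 0.1 (19.3%), 15 lower with a pseudocount of 5 (33.4%), 80 higher with no filter (23.8%), 2 lower with robust variance fitting (25.5%), and 2 and 3 of 13 rows at a mean of at least 5 TPM (25.6% and 29.3%). With the replicate number as a block, 27 were higher and 8 lower (16.5% and 23.6%); the labels do not say that a number marks a shared culture, and same-numbered deviations correlated at -0.067, so the block is given only here. Leaving out 1 library gave 11 to 50 higher and 2 to 14 lower. Each such fit leaves 1 library in a group, which is assumed to vary like the other group, so a call kept there says little about stability. Some fits of all 4 libraries also gave far smaller adjusted p-values than the centred fit. The limma adjusted p of MIR1306 was 0.0011 in the centred fit and 5.2e-19 as deposited. It was 2.1e-22 without the 20 most abundant rows and 1.7e-19 with no filter. A call kept in those 4-library fits also says little about stability. Of the 23 calls, 8 passed in the same direction in all alternatives in which they were tested: MIR1306, MIR378I, MIR6759, MIR8078 and the 4 identical MIR941 rows. Without input replicate 1, 10 calls were lost, those of MIR196A1, MIR3651, MIR3916, MIR4449, MIR4516, MIR4664, MIR4737, MIR614, MIR6516 and MIR6758. Without input replicate 2, 7 were lost (MIR3651, MIR4449, MIR4664, MIR4737, MIR6514, MIR661 and MIR6758), without Flag-RIP replicate 1 those of MIR6514 and MIR6758, and without Flag-RIP replicate 2 that of MIR6514. Robust fitting lost 9, those of MIR3651, MIR3916, MIR4449, MIR4516, MIR4664, MIR4784, MIR614, MIR6516 and MIR6758. MIR4449 turned to 0.418 and MIR4664 to 0.562 as deposited, and MIR4737 to -0.653 and MIR614 to -0.0527 scaled to the spike-ins; none of these passed. Host genes, 12 higher and 9 lower, had 49 and 0 as deposited, 1 and 36 scaled to the spike-ins, 27 and 1 with no filter, 22 higher with a pseudocount of 5, 16 lower with a pseudocount of 0.1, 5 lower after quantile normalization, 2 lower without the 20 most abundant rows, and 4 to 13 higher and 0 to 11 lower without 1 library. Pathway genes, 10 higher and 2 lower, had 22 and 0 as deposited, 1 and 9 scaled to the spike-ins, 19 and 1 with no filter, 0 lower without the 20 most abundant rows, 1 lower at a mean of at least 5 TPM, and 2 to 12 higher and 0 to 2 lower without 1 library. The cause of these shifts was not tested. A threshold of 0.5 TPM on the mean would give 171 rows and 2 TPM would give 43.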
